A study of Mus musculus with 4 samples.

Results

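Olfactory receptor genes were examined in gene-level RNA signal from gonads of mouse fetuses 15.5 days after conception (15.5 dpc). Members were all listed genes whose symbol is Olfr followed by a number. There were 1115 such entries, 5 of which repeated the position and all 4 values of another entry, so 1110 receptor genes of 20299 genes in all were analysed. They were grouped into clusters by chromosome, a receptor joining its neighbour when their starts lay within 1 Mb. This gave 49 clusters on 17 chromosomes, of which 21 held 10 or more receptors (1014 receptors together), and 9 were receptors standing alone.

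All 4 groups came from fetuses of CF1 mothers and TgOG2 fathers and held 1 library each: male germ cells, female germ cells, male gonadal somatic cells (male soma) and female gonadal somatic cellstic cells (female soma). The TgOG2 transgene drives enhanced green fluorescent protein from the Oct4 (Pou5f1) promoter. Germ cells were the GFP-positive and somatic cells the GFP-negative fraction of a flow sort, so the somatic fraction was defined by absence of the reporter and mixes all other gonadal cell types. The series is concerned with widespread weak transcription in male germ cells ahead of DNA methylation, and the receptor clusters are gene families that are silent in most tissues. With 1 library a group, differences between groups have no replicate check. In bulk samples, fewer cells of a type and less RNA per cell cannot be told apart.

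Olfactory receptors are G protein-coupled receptors that bind odorants at the cilia of sensory neurons in the nose. Each mature sensory neuron expresses a single receptor allele, chosen from repressed gene clusters with the help of the transcription factors Lhx2 and Ebf and the cofactor Ldb1. The genes are compact, with the coding sequence in a single exon. In the mouse the fish-like class I receptors lie together on chromosome 7 around the beta-globin locus, and class II receptors fill the other clusters. Some receptors are known outside the nose, among them Olfr16 (MOR23) in sperm and Olfr78 in arteries and the carotid body.

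The start regions of 5 receptors on which the results below turn are shown first, as 300 bases from 250 before to 50 after the annotated start (RefSeq, build GRCm38.p6, 5′ to 3′ on the gene's strand). In each of the 5 the annotated start falls on an ATG. It may therefore be the start of the coding sequence and not of transcription, and the window may miss the promoter. Olfr247 and Olfr819 had the strongest receptor signal of the female germ library and are neighbours on chromosome 10. In their sequences the capitals mark the longest unbroken run the pair shares, 146 bases. Over 281 aligned bases 280 were identical.
Olfr247, chr10:129975500-129975799, minus strand: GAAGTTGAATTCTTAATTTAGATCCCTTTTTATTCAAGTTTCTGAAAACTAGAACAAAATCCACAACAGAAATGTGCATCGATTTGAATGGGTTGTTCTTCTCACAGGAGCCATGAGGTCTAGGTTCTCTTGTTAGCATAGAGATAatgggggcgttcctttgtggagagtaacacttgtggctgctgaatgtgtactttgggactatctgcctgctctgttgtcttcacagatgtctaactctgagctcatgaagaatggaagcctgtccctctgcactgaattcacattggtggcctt
Olfr819, chr10:129966649-129966948, minus strand: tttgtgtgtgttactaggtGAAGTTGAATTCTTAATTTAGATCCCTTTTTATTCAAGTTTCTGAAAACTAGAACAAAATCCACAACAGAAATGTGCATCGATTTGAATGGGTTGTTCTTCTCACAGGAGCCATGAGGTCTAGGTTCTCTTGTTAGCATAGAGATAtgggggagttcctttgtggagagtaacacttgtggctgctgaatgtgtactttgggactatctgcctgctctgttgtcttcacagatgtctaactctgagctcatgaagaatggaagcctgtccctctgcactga
Olfr1350 and Olfr1393 had the strongest signal of the male germ library, and Olfr461 stood high in female germ cells with signal in every library. In Olfr461 the capitals mark the homeodomain core TAATTA. Neither TAATTA nor the Olf1/Ebf core (TCCC, any 2 bases, GGGA) was found in the other windows on either strand.
Olfr1350, chr7:6569743-6570042, plus strand: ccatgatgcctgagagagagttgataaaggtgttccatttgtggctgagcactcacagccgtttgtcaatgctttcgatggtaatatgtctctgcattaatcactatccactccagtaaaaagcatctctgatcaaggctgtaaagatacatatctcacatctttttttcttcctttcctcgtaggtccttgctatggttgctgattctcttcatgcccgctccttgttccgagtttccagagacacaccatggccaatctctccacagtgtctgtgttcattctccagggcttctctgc
Olfr1393, chr11:49279900-49280199, plus strand: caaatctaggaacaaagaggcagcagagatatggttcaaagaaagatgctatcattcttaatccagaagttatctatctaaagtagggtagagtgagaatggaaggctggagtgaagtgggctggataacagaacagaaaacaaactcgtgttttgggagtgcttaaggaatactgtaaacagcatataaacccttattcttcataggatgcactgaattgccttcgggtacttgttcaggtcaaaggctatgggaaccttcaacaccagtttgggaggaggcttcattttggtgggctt
Olfr461, chr6:40544928-40545227, minus strand: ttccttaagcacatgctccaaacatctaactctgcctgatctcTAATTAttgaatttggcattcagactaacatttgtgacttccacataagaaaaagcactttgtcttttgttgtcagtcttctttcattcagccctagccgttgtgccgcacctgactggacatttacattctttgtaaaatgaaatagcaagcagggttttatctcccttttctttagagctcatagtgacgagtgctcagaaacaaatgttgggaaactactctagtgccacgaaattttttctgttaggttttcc

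Values are scaled signal per 1000000 (SPM): the deposited gene signal over the library total, adjusted for composition. They are not divided by gene length except where a value is given per kb. Depth, estimated from the spacing of the low values, was 24.9 M fragments in male germ, 17.5 M in female germ, 17.6 M in male soma and 24.2 M in female soma (M, 1000000), so that 1 fragment was worth between 0.0375 and 0.0602 SPM. The sort matched its labels on the germ cell genes Ddx4, Dazl and Mael, which each stood at 383 SPM or more in both germ libraries and at 8.29 SPM or less in both somatic libraries. Pou5f1, whose promoter drives the reporter, had 497 SPM in the male and 34.5 in the female germ library and at 4.75 and 0.0195 in the soma of each sex. Stromal collagen and Pdgfra transcripts summed to 9428 and 2876 SPM in male and female soma and to 132 and 19.0 in the male and female germ libraries. Of the genes that define mature olfactory neurons, Omp stood at 1.34, 0.739, 0.925 and 0.156 SPM in male germ, female germ, male soma and female soma, and the channel gene Cnga2 at 0.229, 0, 0.650 and 0.253. The other 2 genes of that list, Gnal and Adcy3, stood higher, at up to 34.04 and 106 SPM, and are described with the signalling genes.

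More receptor genes carried some signal in male germ cells than in any other library, most of it weak. Signal above 0 was listed for 287 of 1110 receptors (25.9%) in male germ cells, where 90.4% of all 20299 genes were listed above 0. In female germ cells it was 73 receptors (6.58%, against 77.3% of all genes), in male soma 38 (3.42%, against 78.7%) and in female soma 43 (3.87%, against 79.8%). Brought to an equal depth of 17.5 M fragments, the shares were 22.4%, 6.58%, 3.35% and 3.43%, with the male germ share again the highest. At 3 fragments or more the counts were 139, 52, 20 and 22, again with the male germ library first. At 0.5 SPM or more they were 19, 14, 4 and 1, and at 1 SPM or more 5, 9, 1 and 1, so that the female germ library led at the highest level.

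**Figure D1:**
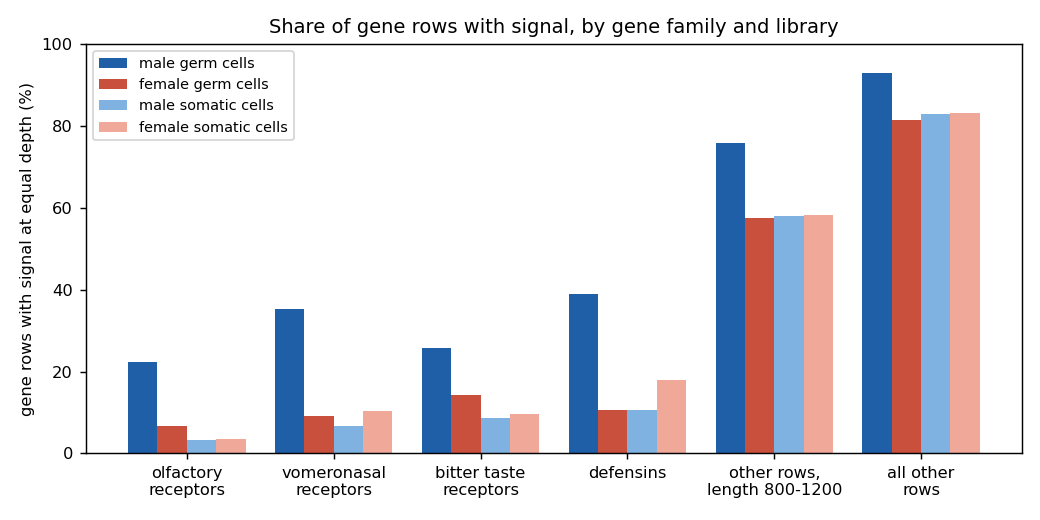
Percentage of gene rows with signal after every library was brought to an equal depth of 17.5 M fragments, for 6 sets of genes (groups of bars, x axis) in the 4 libraries (colours), 1 library per bar and no error. The male germ bar is the highest of each set, at 22.4% for olfactory receptors and 92.9% for all other rows.

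Of the 1110 receptors, 769 (69.3%) were listed at 0 in every library, against 4.31% of all other genes. Signal in male germ cells alone was seen for 212 receptors (19.1%, against 6.23% of all genes), in female germ cells alone for 28 (2.52%, against 0.399%), in male soma alone for 8 (0.721%, against 0.217%) and in female soma alone for 16 (1.44%, against 0.424%). At equal depth the share in male germ cells alone was 16.5%. Only 3 receptors had signal in all 4 libraries, Olfr461, Olfr90 and Olfr212, the last 2 named after their values were seen and both at 0.402 SPM or less throughout. Of the 73 female germ receptors, 44 (60.3%; 15.3% of the 287 male germ receptors) were also seen in male germ cells. So were 29 of the 38 male somatic receptors (76.3%; 10.1%) and 25 of the 43 female somatic receptors (58.1%; 8.71%). For scale, 90.4% of all genes and 25.9% of all receptors had male germ signal. The same overlap was not counted over all genes.

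The male germ library was also first in like gene families, given here for scale. Vomeronasal receptors, the pheromone receptors of the vomeronasal organ, had signal for 128 of 316 genes (40.5%) in male germ cells against 9.18%, 6.65% and 11.1% in female germ, male soma and female soma. For the 35 bitter taste receptors the shares were 28.6%, 14.3%, 8.57% and 11.4%, and for the 57 defensin genes 43.9%, 10.5%, 10.5% and 19.3%. Other genes of listed length 800 to 1200 bases, near the receptors' median of 946, had 79.1%, 57.5%, 58.3% and 59.5%. Among genes listed at 0 in the other three libraries, 212 of 981 olfactory receptors (21.6%) had signal in male germ cells, against 32.2% of 258 vomeronasal receptors and 43.2% of 588 other genes of like length. By that count the olfactory receptors were not the family most often listed in male germ cells alone.

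Where receptors had signal, it was low. The median among receptors with signal was 0.0914 SPM in male germ, 0.237 in female germ, 0.177 in male soma and 0.117 in female soma, or 2.44, 3.96, 2.94 and 2.92 fragments. In male germ cells 148 of 287 (51.6%) lay under 3 fragments, 28 of them under 1, which is possible because the deposited values are not whole multiples of a fragment. Only 31 male germ receptors and 12 female germ receptors reached 10 fragments, against 2 and 1 in male and female soma.

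Male germ cells spread their receptor signal over many genes, while female germ cells and both somatic libraries concentrated it in few. All receptors together held an estimated 1430.45 fragments in the male germ library (exact Poisson 95% interval 1357 to 1507), 650.3 in female germ cells (601 to 702), 166 in male soma (142 to 193) and 202 in female soma (175 to 232). Scaled to SPM, the male germ sum was 1.38 times the female germ sum (exact conditional binomial 95% interval 1.26 to 1.52), 5.37 times the male somatic sum (4.57 to 6.35) and 6.65 times the female somatic sum (5.74 to 7.75). These intervals cover counting error only. The top 5 receptors made up 21.2% of the male germ sum and 46.4% of the female germ sum, and 50% of the sum was reached with 33 receptors in male germ cells against 7 in female germ cells. Without Olfr247, Olfr1033, Olfr819, Olfr1350 and Olfr461, the 5 receptors of highest mean, the male germ sum was 2.07, 6.91 and 10.1 times the female germ, male somatic and female somatic sums.

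**Figure D2:**
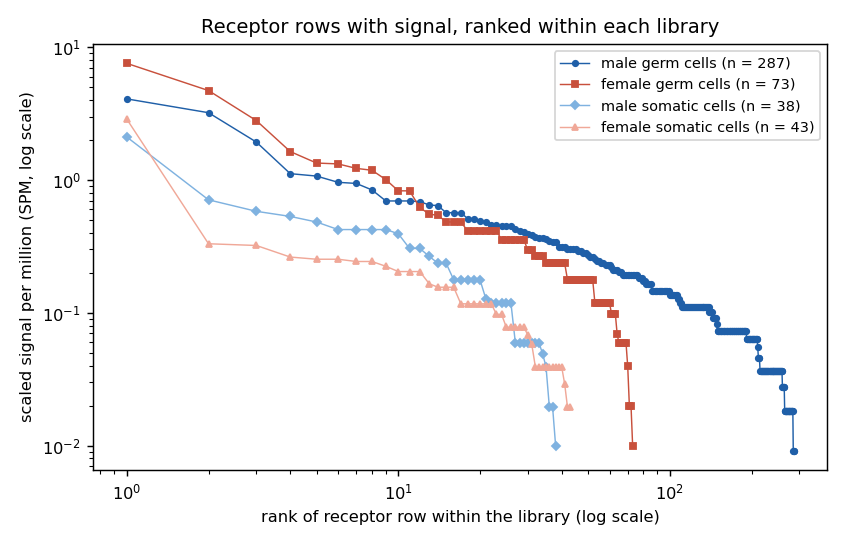
Scaled signal (SPM, log y axis) of every receptor with signal, ranked from highest to lowest within its library (rank, log x axis), for 287, 73, 38 and 43 receptors in male germ, female germ, male soma and female soma. The female germ curve starts higher, at 7.55 against 4.08 SPM, and the male germ curve runs on to far higher ranks.

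All 21 clusters of 10 or more receptors had signal in the male germ library. In female germ cells 16 of them did, in male soma 12 and in female soma 11. The share of receptors with signal was higher in male germ than in female germ cells in 20 of 21 clusters and tied in the last, a cluster of 15 on chromosome 7 (Olfr310 to Olfr292) with 6.67% in each. It was higher than in either somatic library in all 21, and these 3 counts held at equal depth. By summed SPM the male germ library was the highest in 13 of the 21, and by fragments in 15. Across the 21 clusters the male germ share ran from 6.67% to 79.2%, with a median of 25.5%. The medians of the other libraries were 4.04%, 2.13% and 2.02% for female germ, male soma and female soma.

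**Figure D3:**
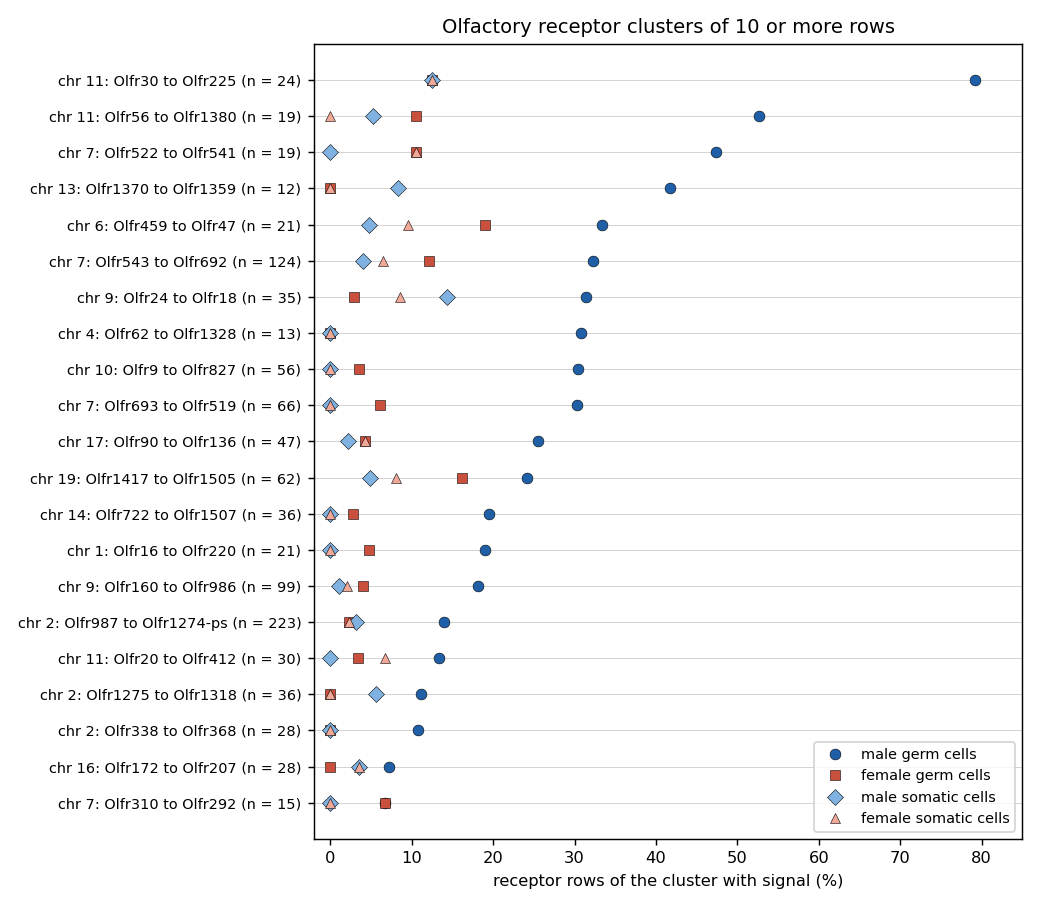
Percentage of receptors with signal (x axis) in each of the 21 clusters of 10 or more receptors (y axis, named by chromosome, first and last gene and number of receptors), with 1 symbol per library. Male germ cells range from 6.67% to 79.2% and lie to the right of the other symbols in all but the bottom cluster, where they coincide with female germ cells.

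The highest share belonged to a cluster on chromosome 11 (mm9, 58268416 to 59427727, Olfr30 to Olfr225), where 19 of 24 receptors (79.2%) had signal in male germ cells and 3 (12.5%) in each other library. Its male germ levels ran from 0 to 0.695 SPM apart from Olfr316 at 1.93 SPM. From Olfr330 to Olfr320, 9 receptors in a row had male germ signal, and all were at 0.695 SPM or less. The 27 other genes inside the span of this cluster all had male germ signal, near the 94.2% over all genes that are not receptors. In female germ, male soma and female soma 23, 22 and 25 of the 27 had signal. A second cluster on chromosome 11 (48864234 to 49378360, Olfr56 to Olfr1380) had signal for 10 of 19 receptors (52.6%) in male germ cells and for 2, 1 and 0 in female germ, male soma and female soma.

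At the low end stood a cluster on chromosome 16 (58760265 to 59362042, Olfr172 to Olfr207) with 2 of 28 receptors (7.14%), and 2 clusters on chromosome 2, Olfr338 to Olfr368 with 10.7% of 28 and Olfr1275 to Olfr1318 with 11.1% of 36. These 3 held no other gene within their span, but neither did Olfr9 to Olfr827 on chromosome 10 (30.4% of 56) nor Olfr62 to Olfr1328 on chromosome 4 (30.8% of 13). The largest cluster of all, 223 receptors on chromosome 2 (85171123 to 90241831, Olfr987 to Olfr1274-ps), had signal for 31 (13.9%) in male germ, 5 (2.24%) in female germ, 7 (3.14%) in male soma and 5 (2.24%) in female soma.

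The cluster that holds the class I receptors, 124 genes on chromosome 7 (109625286 to 112517831, Olfr543 to Olfr692), had signal for 40 (32.3%) in male germ, 15 (12.1%) in female germ, 5 (4.03%) in male soma and 8 (6.45%) in female soma. Receptors outside it had 25.1%, 5.88%, 3.35% and 3.55%. Within it lies the beta-globin locus, whose Hbb-b1, the adult beta-globin gene of red blood cells, reached 15791 SPM in male and 7413 in female soma against 157 and 49.0 in germ cells of males and females. Of the 13 receptors within 100 kb of a globin gene, 1 had signal in male soma, at 0.00984 SPM, and none in female soma, while 4 had signal in male germ cells at 0.110 SPM or less. These counts are near the shares over all receptors given above.

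In a smaller cluster at the start of chromosome 7 (6392612 to 6523630), 5 neighbours of 8 had male germ signal. From Olfr5 to Olfr1350 the levels in male germ cells were 0.192, 0.137, 0.457, 0.942 and 4.08 SPM. In the other libraries all 8 were listed at 0 except Olfr1350 in male soma. Over all clusters, a receptor whose preceding neighbour had signal was more often listed with signal itself: 116 of 262 (44.3%) against 148 of 799 (18.5%) in male germ cells and 19 of 64 (29.7%) against 42 of 997 (4.21%) in female germ cells.

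Receptors near a gene that was expressed in the same library had signal more often, in every library. In male germ cells the share was 66.7% of 21 receptors within 10 kb of another gene at 1 SPM or more, 47.8% of 138 at 10 to 50 kb, 34.5% of 148 at 50 to 100 kb, 27.5% of 193 at 100 to 200 kb, 19.9% of 301 at 200 to 500 kb and 13.9% of 309 beyond. In female germ cells it went from 43.8% of 16 and 15.5% of 116 to 2.62% of 344, in male soma from 23.5% of 17 and 9.09% of 121 to 1.45% of 346, and in female soma from 12.5% of 16 and 9.17% of 120 to 1.71% of 350. The nearest bins hold few receptors, and the order in male germ cells is the same without them. Beyond 500 kb the male germ share was still above those of the other libraries at the same distance. Within 50 kb the side did not separate receptors in male germ cells: 48.4% of 31 lying downstream of the expressed gene on its strand had signal, 54.2% of 48 lying upstream on its strand and 48.8% of 80 on the other strand. Whether reads running on from neighbouring transcripts contribute was not tested. Across the 21 larger clusters, Spearman's rho between the male germ share and the median distance to an expressed gene was -0.66, a description over clusters that share 1 library.

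**Figure D4:**
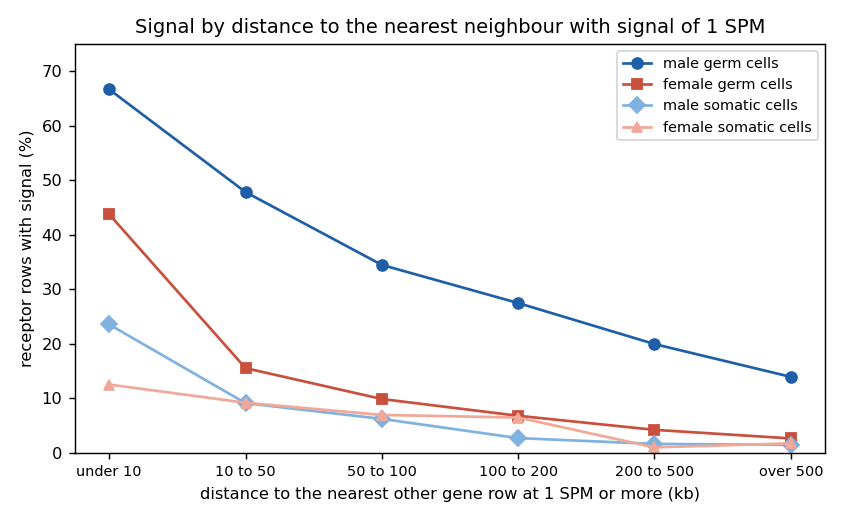
Percentage of receptors with signal (y axis) by the distance to the nearest other gene at 1 SPM or more in the same library (x axis, kb), with 1 line per library. All 4 lines run down from left to right as far as the 200 to 500 kb bin, and the male germ line lies above the others in every bin, from 66.7% to 13.9%.

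In male germ cells 5 receptors reached 1 SPM and stood at least 4-fold above each other library. Olfr1350 (chromosome 7, 6522703 to 6523630) reached 4.08 SPM in male germ cells, had 0.0591 in male soma, and had no listed signal in the female libraries. That is at least 22.7-fold higher than in female germ cells, taking a floor of 3 fragments per library for a value of 0. Its nearest other gene, the imprinted Zim1 at 104.5 kb on the other strand, ran opposite, at 6.77, 7.88, 86.9 and 137 SPM in male germ, female germ, male soma and female soma. Olfr1393, a receptor known from the kidney (chromosome 11, 49093651 to 49094587), stood at 3.21, 0.0591, 0.118 and 0 SPM in the same order, 54.3-fold higher in male than in female germ cells on 1 female fragment (interval 9.43 to 2156). Mgat1, a glycosylation gene 17.1 kb away on the same strand, stood at 89.1, 69.5, 150.4 and 135 SPM. The closest relative of Olfr1393, Olfr1392, is its next neighbour and had 0.512 SPM in the male germ library alone. Olfr316 stood at 1.93, 0.266, 0 and 0 SPM, 7.25-fold higher in the male germ library (2.94 to 30.5). Fam183b, 34.2 kb from it on the other strand, was listed in male germ cells alone, at 3.56 SPM, and its part in the signal of Olfr316 was not tested. Olfr149 on chromosome 9 and Olfr585 on chromosome 7 stood at 1.12 and 1.07 SPM in male germ cells and were listed at 0 in the other libraries, at least 6.22-fold and 5.96-fold lower in female germ cells.

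In female germ cells 7 receptors met the same rule. Olfr247 (chromosome 10, 129411660 to 129421480) had 7.55 SPM in the female and 0.0731 in the male germ library, with no listed signal in soma. The ratio of female to male germ cells was 103, with a counting interval of 27.2 to 838 on 2 male fragments. Olfr819 (129402791 to 129403754) stood at 4.71, 0.146, 0 and 0 SPM, 32.2-fold higher in female than in male germ cells (11.8 to 118). Per kb of listed length, the means over the 4 libraries of the pair were 1.007 SPM for Olfr247 and 1.26 for Olfr819. Their transcripts are 99.3% identical over 963 aligned bases, so their signal cannot be assigned to either copy with certainty. In female germ cells the pair made a sharp island. Olfr818 on one side and Olfr820, Olfr821, Olfr822 and Olfr823 on the other were at 0 in all 4 libraries. The next receptors outward, Olfr816 (0.146 SPM) and Olfr824 (0.0914 SPM), had signal in male germ cells alone. There Olfr819 itself had 0.146 and Olfr247 0.0731 SPM. The nearest gene that is no receptor, Neurod4, lies 283.7 kb from Olfr247. Neurod4 stood at 0.229, 0.237, 0 and 0 SPM in male germ, female germ, male soma and female soma. Of the 56 receptors in the pair's cluster, 2 had signal in female germ cells, Olfr247 and Olfr819, and 17 in male germ cells.

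The other female germ receptors stood lower. Olfr1383 reached 1.34 SPM in female germ and 0.137 in male germ cells, Olfr691 reached 1.22 and 0.192, Olfr1420 reached 1.32 and 0.302, and Olfr20 reached 1.18 and 0.256. In somatic cells Olfr1383 and Olfr691 were listed at 0, and Olfr1420 and Olfr20 had 0.117 SPM in the female library alone. Olfr1495 reached 1.01 SPM in the female germ library and had no listed signal in the other 3. Beside some of these lie genes that are themselves high in female germ cells. Spata22, a meiotic recombination gene 4.81 kb from Olfr20 on the same strand, stood at 176 SPM in female and 18.01 in male germ cells, and its part in the signal of Olfr20 was not tested. Fam160a2, 33.5 kb from Olfr691, stood at 286 and 136 SPM. Olfr692, 1.89 kb from Fam160a2 and on the other strand, was listed at 1.64 and 0.649 SPM in female and male germ cells and at 0 and 0.0778 in male and female soma, without reaching 4-fold between the germ libraries.

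No receptor met that rule in either somatic library. Olfr461 (chromosome 6, 40494034 to 40494976) stood at 2.80 SPM in female germ, 0.709 in male somatic, 0.331 in female soma and 0.0731 in male germ cells. Prss37, 24.5 kb away on its strand, was also highest in female germ cells, at 2.06 SPM against 0.201, 0.305 and 0 in male germ cells, male soma and female soma. Olfr1033 (chromosome 2, 85860796 to 85884965, listed length 3746 bases) was the one receptor above 1 SPM in soma, at 2.11 and 2.87 SPM in male and female soma against 0.0823 in male germ cells and 0 in female germ cells. Its downstream neighbour Olfr1034 also had signal in soma, at 0.482 and 0.253 SPM in male and female soma, and 0.0366 in male germ cells. Between the somatic libraries Olfr1034 was higher in the male, unlike Olfr1033. The nearest gene that is no receptor, 4833423E24Rik, lies 501.7 kb away and had 0.0886 SPM in male soma and none listed in female soma.

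**Figure D5:**
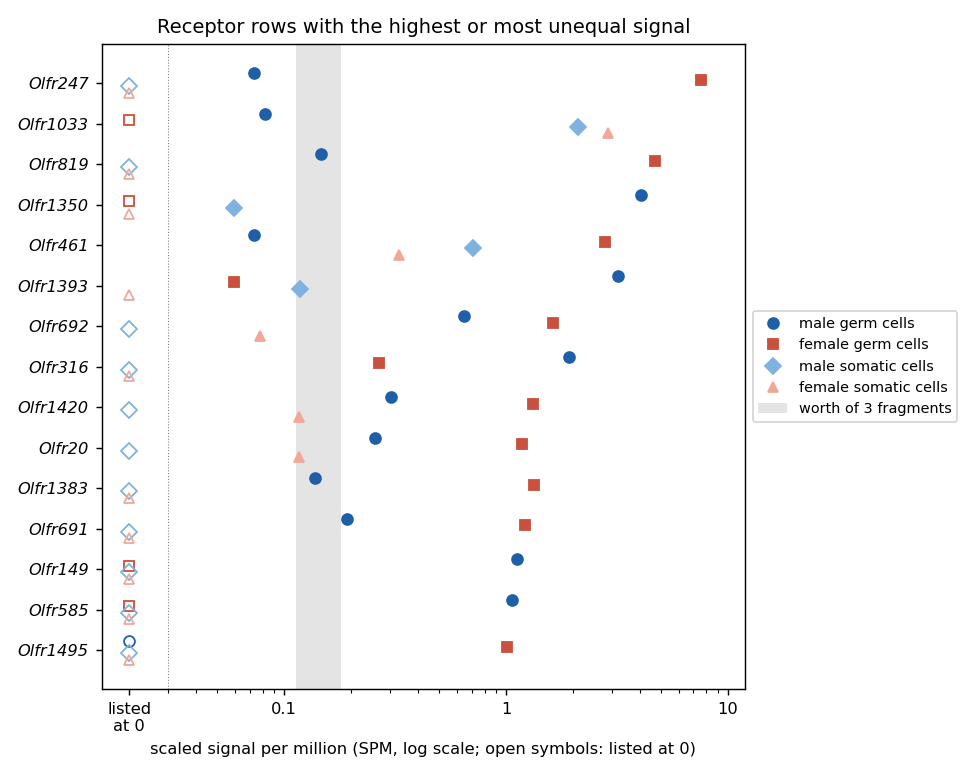
Scaled signal (SPM, log x axis) in the 4 libraries for the 10 receptors of highest mean and the further receptors that stood at least 4-fold above each other library (y axis); open symbols at the left are values listed at 0, and the grey band spans the worth of 3 fragments over the libraries. Male germ symbols lead for Olfr1350, Olfr1393, Olfr316, Olfr149 and Olfr585, somatic symbols for Olfr1033 and female germ symbols for the rest.

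Between pairs of libraries the same size rule, 4-fold or more with 1 SPM or more on the higher side, was applied to all genes. Of 14 receptors at 1 SPM or more in a germ library, 5 passed on the male side and 8 on the female side, against 18.6% and 9.61% of all 14739 genes at that level. Few receptors could enter, so these counts describe the named genes rather than the family. For male germ against male soma 5 of 6 receptors were higher in germ cells and 1, Olfr1033, in somatic cells, against 16.5% and 17.9% of all genes. For female germ against female soma 9 of 10 were higher in germ cells and Olfr1033 in somatic cells, against 14.3% and 24.8%. Between male and female soma 1 receptor reached 1 SPM and none passed in either direction, against 4.28% and 4.32%.

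Germ cells were tested against somatic cells with limma over all genes reaching 1 SPM in 2 libraries or more, each cell type being represented by 1 library of either sex. Olfr1033 alone among the 1110 receptors passed that filter. It passed only through its somatic levels (2.11 and 2.87 SPM in male and female soma), the group in which it is high. What follows for Olfr1033 therefore describes the size of its difference and is not independent support for it. Its log2 difference, germ minus somatic on log2(SPM + 0.5), was -2.46 ± 0.56 (SE, n = 2 libraries per cell type), with the same sign in both sexes, and it did not pass (limma adjusted p = 0.0600). Over all 14148 genes 2.5% were called higher and 5.56% lower in germ cells. None of the receptors was called, and 1 had an unadjusted p under 0.05. With sex as a term in the fit, Olfr1033 was called lower in germ cells.

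Receptors known outside the nose were, apart from Olfr1393, at the edge of detection. Olfr16 had 0.0640 SPM in the male germ library, under 3 fragments, and no listed signal elsewhere. Olfr78 was listed at 0.177 SPM in male soma and at 0 elsewhere, and its transcripts are 99.9% identical to those of Olfr560 over 872 bases. Olfr544 stood at 0.110 and 0.243 SPM in male germ and female soma and at 0 in the other libraries. Olfr558 had 0.236 SPM in male and 0.321 in female soma, 0.0731 in male germ and 0 in female germ cells. Of the 9 receptors that stand alone, 4 were at 0 in every library, namely Olfr466, Olfr266, Olfr1402 and Olfr1325. Olfr267 had the highest mean of the 9, at 0.414 SPM in female germ and 0.305 in male soma, with 0.0640 in male germ and 0 in female soma. Olfr19 (0.253 SPM) and Olfr49 (0.0973) had signal in female soma alone, and Olfr371 (0.210) and Olfr370 (0.0640) in male germ cells alone.

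Genes that work with receptors in the nose gave no called difference between germ and somatic cells. Of 13 entries of the signalling list, 5 could be tested for germ against somatic cells and none passed in either direction (median log2 difference -0.73, against -0.11 over all genes tested). The symbol Cngb1 has 2 entries, on chromosomes 5 and 8. In male germ, female germ, male soma and female soma they stood at 0.832, 0, 0.0984 and 0.156 SPM (chromosome 5) and at 11.8, 1.05, 0.866 and 0.652 (chromosome 8). Gnal, the G protein alpha subunit of odorant signalling, stood at 34.04 SPM in male germ and 0.621 in female germ cells, with 15.5 and 20.1 in male and female soma. The receptor chaperone genes Rtp1 and Rtp2, which bring receptors to the cell surface, stood at 0.375 and 0.357 SPM in male germ cells and were listed at 0 in the other libraries. Ano2, a chloride channel gene, stood at 4.96 SPM in male germ cells, at 0 in female germ and at 0.207 and 0.204 in male and female soma. Cnga4, another channel gene, was highest in female germ cells, at 5.78 SPM against 0.521 in male germ, 0.236 in male soma and 0.117 in female soma. Of the 13 entries, 9 were highest in male germ cells. Adcy3, the odorant adenylyl cyclase, was present throughout, at 63.3, 35.7, 58.6 and 106 SPM. Reep1, an accessory gene of receptor trafficking, had the largest difference of the list, at 22.1 and 24.8 SPM in the male and female germ libraries against 161 and 922 in male and female soma. It did not pass (log2 difference -4.01, limma adjusted p = 0.0553).

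Of the 14 genes tied to receptor choice, 13 could be tested and none passed in either direction (median log2 difference -0.44). Lhx2, a homeodomain factor of receptor enhancers, stood at 3.35 and 7.29 SPM in germ cells of males and females against 0.236 and 0.428 in male and female soma. Kdm1a, the histone demethylase required for receptor activation, was highest in male germ cells at 746 SPM, against 237, 192 and 240.1 in female germ, male soma and female soma. Ehmt2, which writes the repressive H3K9 methylation found at silent receptor clusters, was also highest there, at 1413 SPM against 151, 353 and 401. Ehmt1 went the other way and was lowest in male germ cells, at 75.4 SPM against 176, 197 and 197. Ldb1 stood at 198, 66.8, 129 and 188 SPM in male germ, female germ, male soma and female soma. Of the 14 genes, 5 were highest in male germ cells. Other members stood higher in soma. Ebf1, an Olf/Ebf factor, had 0.896 and 0 SPM in the male and female germ libraries against 19.2 and 3.25 in male and female soma. Emx2, a homeodomain factor, had 0.210 and 1.91 against 9.77 and 65.5, and Cbx5, the heterochromatin protein HP1 alpha, 387 and 147 against 886 and 750.003. Ebf4 was low in male germ cells alone, at 1.98 SPM against 16.4, 20.9 and 19.3 in female germ cells, male soma and female soma.

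Start windows were matched for 924 receptors. Since the annotated start fell on an ATG in each window printed above, receptor windows may lie at coding starts and not at promoters. Whether the windows of other genes do so was not checked, so the shares below may compare unlike regions. TAATTA occurred in 18.7% of the matched receptors and in 5.68% of other genes, and the Olf1/Ebf core in 0.541% and 1.08%, with both strands searched. The receptor windows were poorer in GC (median 35% against 53.3%), and these shares were not adjusted for base composition. Among receptors with male germ signal TAATTA occurred in 15.2% of 250, and among those at 0 in every library in 20.2% of 628. The Olf1/Ebf core occurred in 4 of those 250 (1.6%) and in 1 of those 628 (0.159%). The median GC content of the window was 37.7% with male germ signal, 38.7% with female germ signal, 34.3% for receptors at 0 in every library and 53.3% for other genes. Receptors of listed length over 1100 bases had male germ signal in 44 of 112 cases (39.3%), against 24.3% of 998 shorter ones. By sequence, 16 of 47 receptors (34.0%) with a copy at 98% identity or more had male germ signal, against 127 of 545 (23.3%) whose closest copy was under 90%, so the signal was not limited to receptors with near-identical copies.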

How the data were processed

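RNA from flow-sorted cells was depleted of ribosomal RNA and sequenced as paired-end, strand-specific libraries, per the labels' protocols. Tools listed in the submitters' processing notes are TopHat 1.2.0, CASAVA 1.9 and edgeR (version not given there), with build mm9. How reads were assigned to genes, and with which annotation and strand setting: not given in the sources used here. What the authors deposited is a signal per gene in a column whose header says counts. The values are whole numbers whose low values peak at multiples of 4.105 (male germ, female somatic), 6.07 (female germ) and 6.12 (male somatic), with totals of 99.3 to 107 M, and were treated as scaled and rounded. The spacing was taken as 1 fragment. Between 43.1% and 54.3% of nonzero values up to 60 fell on a multiple, against 15% to 23.3% by even spread, so fragment numbers are estimates, and intervals cover counting error only. PCR copies cannot be told apart.

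Of 20373 entries, 74 repeats were removed. Totals were adjusted by trimmed-mean-of-M factors of 1.07, 0.956, 0.945 and 1.03 (male germ, female germ, male somatic, female somatic). Equal-depth counts are the expected number of genes that keep a fragment. The values being scaled, limma 3.58.1 (R 4.3.3, mean-variance trend, Benjamini-Hochberg, threshold 0.05) was run on log2(SPM + 0.5) and no count test was used. No label ties the libraries to separate animals. Without a sex term, the spread behind the p-values is the difference between the male and the female library of each cell type. No replicate shows how much of it is technical. The method was tested on simulated data. For limma, the simulated libraries of a cell type differed by random noise alone, without a sex difference. That check therefore does not cover the male-female differences of the real libraries. Distances to other genes leave out 12 entries listed over more than 3 Mb. Copies were compared with BLAST 2.17.0 on GENCODE M21 transcripts (1096 of 1110 symbols matched), and an aligned length of 500 bases was required. Symbols matched between builds only by name. All coordinates are mm9 except those of start windows.

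Named receptors are the 10 of highest mean SPM, up to 5 per library at 1 SPM and 4-fold above each other library, 5 known outside the nose, those in no cluster and first and last members of clusters. Olfr5, Olfr560, Olfr1034, Olfr1348, Olfr1349, Olfr1392, Olfr330, Olfr320, Olfr816 and Olfr818 to Olfr824 were named after their values were seen. The members, lists and rules were chosen with earlier results of these data known. Alternatives were other detection thresholds, scalings, filters, pseudocounts, cluster gaps, a sex term and leaving out each library.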

Additional observations from a re-analysis of the deposited data

Results flagged for a closer look

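Of 29 values examined (the receptor sum and 28 named receptors), 1 was flagged. Its male-to-female ratio pointed in opposite directions in germ and in somatic cells, with the germ counting interval below 1. Olfr267 (chromosome 4), a receptor in no cluster, stood at 0.155 times the female level in male germ cells (interval 0.0182 to 0.941, on 2 male fragments), and was at least 2.55-fold higher in male than in female soma, where it was listed at 0. That somatic value is a bound from 5.07 male fragments against a floor of 3, with no interval. Olfr461 was not flagged, but its ratios also pointed in opposite directions. It was 38.3-fold higher in female than in male germ cells (9.81 to 318). In soma it was 2.14-fold higher in the male library, with an interval that spans 1 (0.850 to 6.37). The difference between the cell types was not tested for either receptor, since each group is 1 library.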

How the results depend on the processing

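With a sex term 1 receptor, Olfr1033, was called between germ and somatic cells in place of 0, and the cause was not tested. That fit pairs the germ and somatic fractions by sex, and over all genes it called 1094 higher and 1955 lower in germ cells, against 354 and 786 without the term. With pseudocount 0.1 or no filter the count stayed at 0 (9 of 341 receptors at an unadjusted p under 0.05 without the filter), and leaving out each library gave 0 to 0, though without either somatic library no receptor passed the filter. At 3 fragments or more, receptors with signal numbered 139 in male germ, 20 in male soma and 22 in female soma, and at 0.5 SPM or more 19, 14, 4 and 1 in male germ, female germ, male soma and female soma. The male germ sum over the female germ sum was 1.55 with library totals alone, 1.67 with upper-quartile scaling and 2.07 without the 5 receptors of highest mean. Over the male somatic sum it was 6.69 with upper-quartile scaling and 6.91 without those 5, and over the female somatic sum 8.08 and 10.1. With a minimum of 0.5 SPM, receptors past 4-fold numbered 8 for male over female germ, 8 for male germ over male somatic, 3 for male somatic over male germ, 1 for male over female soma and 14 for female germ over female somatic. With a minimum of 5 SPM, 1 was left for female over male germ and 1 for female germ over female somatic, and 0 for male germ over female germ, male germ over male soma and the 2 somatic-over-germ counts. With upper-quartile scaling 5 were past 4-fold for female over male germ. The number of clusters was 54 with a gap of 0.5 Mb and 42 with 2 Mb. Dropping pseudogene symbols, overlapping genes or the removal of repeats, and the equal-depth count, moved no count of receptors with signal by over 1.5 times. The labels give no replicate numbers, so no other pairing was fitted. Levels under 3 fragments, which include 51.6% of male germ receptors with signal, cannot be ranked at this depth.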
